A study of Mus musculus with 6 samples.

Results

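The genes described here encode the acid hydrolases of the lysosome, its membrane proteins and the proton pump that acidifies it. They were chosen by name, 36 genes in all, of 23284 gene names listed in each of 6 RNA-seq libraries, and all 36 had a mean of at least 1 FPKM (fragments scaled for transcript length and library depth) over the libraries. The cells were EGFP+ cells sorted from the skull vault (calvaria) of CX3CR1-EGFP mice, a reporter line for the fractalkine receptor gene, which monocytes and macrophages express. All mice had LPS, a bacterial outer membrane component, injected at the calvarial periosteum. One group received CTLA4-Ig (abatacept, a fusion protein that binds CD80 and CD86) at 10 mg/kg with it, the other received whole human IgG at the same dose, and cells were taken 5 days later, with 3 libraries per group. No mice without LPS are among these samples, and the labels give no age or sex. Nothing in the labels ties a library to its animals, although titles call them biological replicates, so p-values measure the spread between these libraries.

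Lysosomes digest material that phagocytes engulf, at an acid pH kept by the vacuolar proton ATPase (V-ATPase). Proteases, glycosidases and lipid-handling proteins are sorted there from the Golgi, and loss of many of them causes lysosomal storage diseases. Osteoclasts, which form from myeloid precursors, release lysosomal enzymes and protons onto bone. TFEB and its relatives TFE3 and MITF switch many of these genes on through a palindromic promoter motif, and TFEC is a further relative.

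That motif was searched in RefSeq promoter sequences of GRCm38.p6, each spanning 250 bases before to 50 bases after an annotated start. The table held promoters for 30 of the 36 genes, and not for Asah1, Atp6v1b2, Atp6v1h, Ctsb, Ctsh and Npc1. The letters TCACGTGA, which read alike on both strands, were present for 7 of the 30 genes (23.3%), against 1.12% of all 27025 genes in the table and 2.44% of the 7835 of them that were tested for expression. The shorter core CACGTG, which every TCACGTGA contains, was present for 13 of the 30 genes (43.3%), against 8.09% of all genes and 12.2% of tested ones. The 10-base palindrome with a G before and a C after these 8 letters was found for Cln3 alone among the 30 genes. The windows of the 7 genes are shown because the motif was more frequent here than among all promoters. The motif is known from lysosomal genes, so a higher share in a list of such genes is no evidence from these data. They are printed 5′ to 3′ on the gene's own strand, with TCACGTGA in capitals.
Atp6v0d1: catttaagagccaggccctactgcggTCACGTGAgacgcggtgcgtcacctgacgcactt
Atp6v1a: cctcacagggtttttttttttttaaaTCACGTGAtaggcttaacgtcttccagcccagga
Cln3: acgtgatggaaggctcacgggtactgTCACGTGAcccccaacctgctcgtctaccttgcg
Ctsa: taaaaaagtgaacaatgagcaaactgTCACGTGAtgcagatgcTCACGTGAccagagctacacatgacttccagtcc
Ctsd: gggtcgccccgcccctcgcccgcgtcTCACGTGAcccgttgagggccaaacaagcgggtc
Gla: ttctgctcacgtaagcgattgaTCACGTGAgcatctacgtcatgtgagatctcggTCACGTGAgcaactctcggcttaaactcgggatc
Mcoln1: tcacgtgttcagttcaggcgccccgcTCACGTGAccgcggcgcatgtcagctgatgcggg

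The window of Atp6v0d1 lies at chr8:105566035-105566094 (minus strand), that of Atp6v1a at chr16:44139358-44139417 (minus) and that of Cln3 at chr7:126583325-126583384 (minus). The Ctsa window is chr2:164833734-164833810 (plus), the Ctsd window chr7:142387893-142387952 (minus), the Gla window chrX:134601167-134601255 (minus) and the Mcoln1 window chr8:3500447-3500506 (plus). The motif began 46 bases before the annotated start in Mcoln1, 99 in Ctsd and 4 in Atp6v0d1. Ctsa and Gla each held 2 copies, in Ctsa on either side of the annotated start used. The windows of Atp6v1a, Cln3 and Ctsa lie within the RefSeq spans of these genes, so the starts used there are not the outermost ones. In Lamp1, the shorter core stood 4 times in the promoter, never with both outer letters together. A match of letters is a description and does not show that a factor binds there.

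Depth was alike in the groups. Many low values step by what 1 fragment is worth, which put the libraries at roughly 8500000 to 10000000 fragments. The shallowest was at 0.819 of the deepest. The libraries carried transcripts of several myeloid cell types. All 14 matched neutrophil markers had a positive log2 fold change, none passing the test, and their summed level was 173424 to 239811 FPKM with CTLA4-Ig and 133966 to 153027 in the controls. Markers of neutrophil precursors, 5 in all, each had a negative log2 fold change, with a median of -0.08 and none passing the test. Monocyte markers summed to 3937 to 4472 FPKM with CTLA4-Ig and 4474 to 5079 in the controls, although 6 of the 12 had a positive and 6 a negative log2 fold change, with a median of 0.02. Macrophage markers summed to 617 to 905 and 600.5 to 999.9. Of 11 osteoclast markers 6 reached 1 FPKM in every library. Oscar was at 0 in all 6 libraries, Calcr in 5, and Ctsk, the collagen-degrading protease of mature osteoclasts, lay between 1.41 and 4.98 FPKM. Control library 1 stood apart: it held the highest or lowest value of the 6 libraries for 49.4% of all genes tested, and its erythroid markers summed to 8.003 FPKM against 74.1 to 124 in the others. The part of any of these cell types in the results below was not tested.

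The design asks whether these transcripts differed between drug-treated and IgG-treated mice. None of the 36 genes passed the test: limma on log2(FPKM + 1) called 0, as it called 0% of the 10865 genes tested, at the 0.05 threshold on the Benjamini-Hochberg adjusted p. The smallest adjusted p among the 36 was 0.851, for the protease gene Ctsc. At an unadjusted p under 0.05 there were 0 of 36, against 6.07% of all genes tested (659 genes). The log2 fold changes, CTLA4-Ig minus control IgG, ran from -0.27 for Ctsc to 0.11 for the sialidase gene Neu1, and 35 of 36 were smaller than 0.25 in size. Of the 36, 23 were negative, and the median was -0.03. Over all genes tested 52.3% were negative and the median was -0.01. In bulk RNA, fewer cells of a type and less RNA per cell cannot be told apart.

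The spread between libraries sets how small a difference these data could show. The 95% interval of the log2 fold change in limma lay within -0.5 and 0.5 for 34 of the 36 genes. The exceptions were Ctsc, whose interval reached -0.58, and the asparaginyl endopeptidase gene Lgmn, whose interval reached 0.54. Over all genes tested 81.0% of intervals lay within these bounds, and 87.7% among the 8459 genes that averaged 5 FPKM or more. The median interval extended 0.20 to each side for the 36 genes and also 0.20 for those 8459 genes. A missed threshold does not show equal expression.

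**Figure D1:**
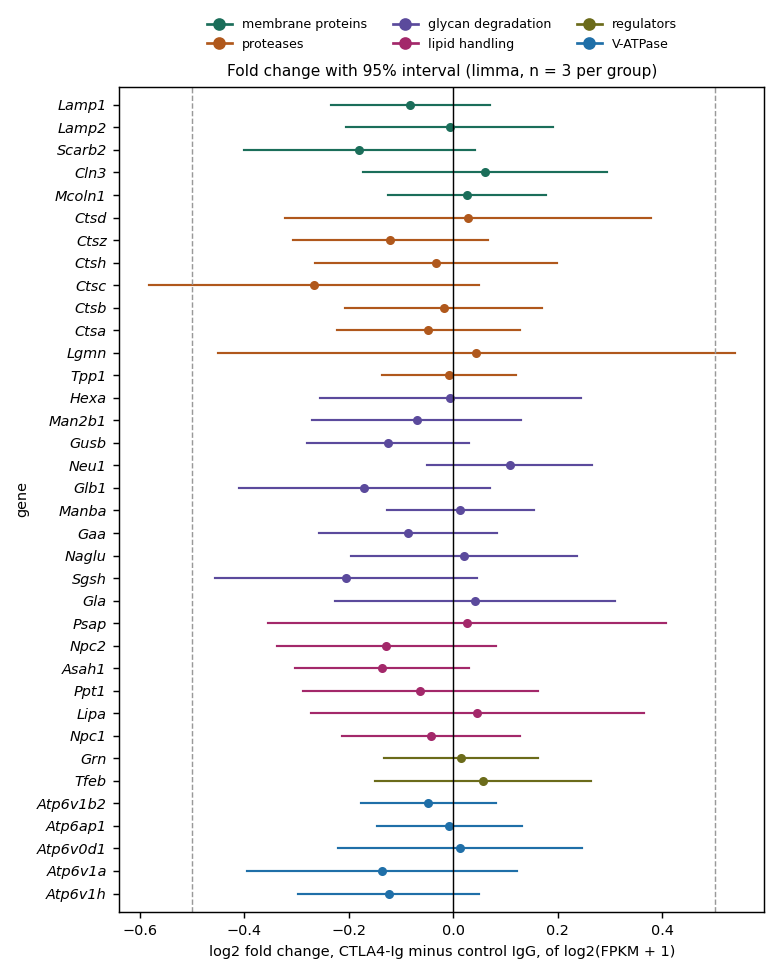
Log2 fold change of each of the 36 genes (point; CTLA4-Ig minus control IgG on log2(FPKM + 1), horizontal axis) with its 95% interval from limma (line), coloured by role, 3 libraries per group. Every interval crosses 0, and only those of Ctsc and Lgmn pass the dashed lines at -0.5 and 0.5.

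In 2 of the 36 genes every CTLA4-Ig library lay below every control library, and in 0 every one lay above. Over all genes tested, 5.69% had non-overlapping groups with lower CTLA4-Ig values and 6.5% with higher ones. The count of lower genes among the 36 is therefore near the background. The 2 genes were Asah1, which encodes the acid ceramidase that splits ceramide, and Sgsh, which encodes a sulfatase that acts on heparan sulfate.

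**Figure D2:**
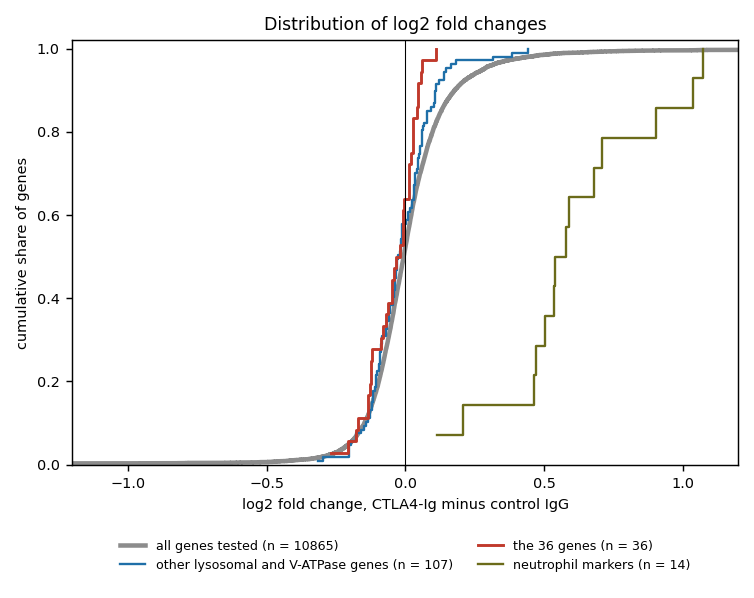
Cumulative share of genes (vertical axis) by log2 fold change, CTLA4-Ig minus control IgG (horizontal axis), for all 10865 genes tested, the 36 genes, 107 other genes of lysosomes and V-ATPase, and 14 neutrophil markers. The 36 genes lie between -0.27 and 0.11, around 0 like all genes, while the neutrophil markers lie from 0.11 to 1.07, and genes beyond the axis limits are not drawn.

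Levels ranged widely among the 36 genes. FPKM is scaled for transcript length, so levels can be set beside each other. The highest was Psap, which encodes the precursor of the saposins that present lipids to hydrolases, at 1787 FPKM over the 6 libraries, above 99.6% of the genes tested. Psap alone held 26.5 to 35.4% of the summed FPKM of the 36 genes. Lamp1 followed at 409 FPKM and Ctsd at 298. At the low end were Gla at 6.44 FPKM, Sgsh at 7.92, Naglu at 7.98, Gaa at 10.9 and Mcoln1 at 12.95. Together the 36 genes held 0.627 to 0.752% of a library's FPKM sum with CTLA4-Ig and 0.702 to 0.813% in the controls, so the groups overlapped. Their summed level was 5292 to 5792 FPKM with CTLA4-Ig and 5335 to 5902 in the controls, also overlapping. The FPKM sums of whole libraries did not overlap, at 770271 to 851706 with CTLA4-Ig and 726358 to 759683 in the controls. The shares thus rest on larger totals with CTLA4-Ig.

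**Figure D3:**
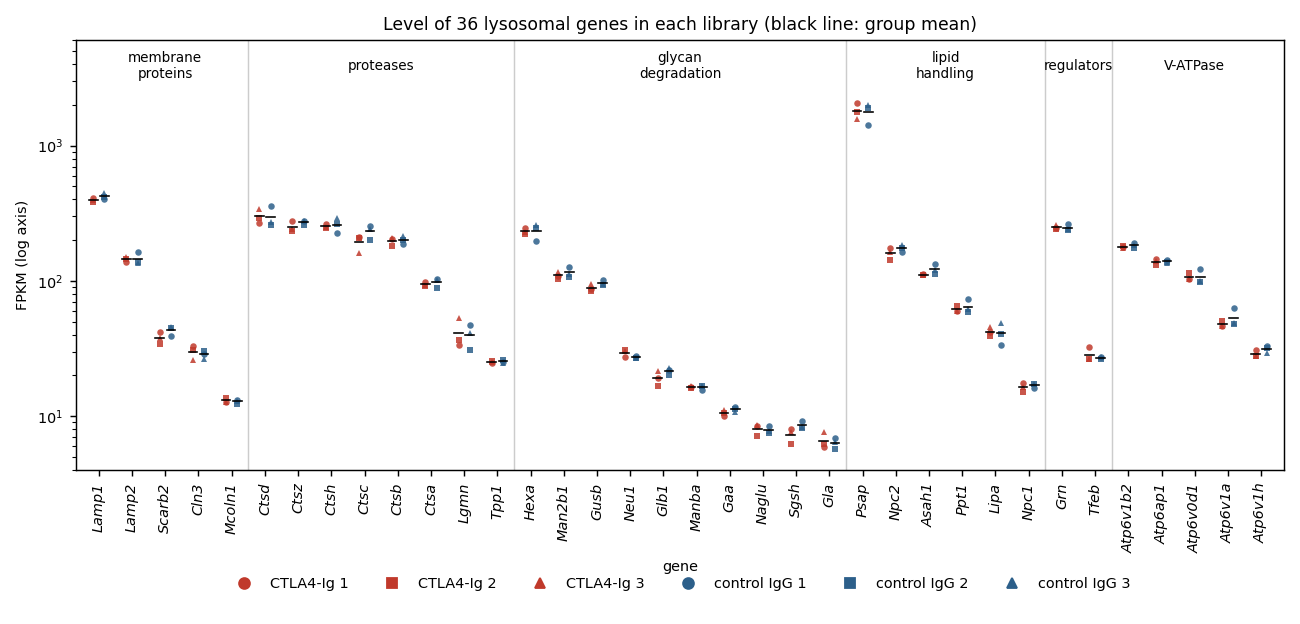
Level of each of the 36 genes in FPKM (log axis) in the 6 libraries, grouped by role and ordered by mean within a role. Points are libraries (circle, square and triangle for replicates 1, 2 and 3; red for CTLA4-Ig, blue for control IgG) and black lines are group means; the groups are separate only for Asah1 and Sgsh, and mean levels run from 6.44 FPKM for Gla to 1787 for Psap.

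Of the 5 membrane proteins, 2 had a positive and 3 a negative log2 fold change, with a median of -0.01. Lamp1 encodes a major glycoprotein of the lysosomal membrane (chromosome 8, 13159161 to 13175338, GRCm38). It stood at 410.4, 385 and 397 FPKM in CTLA4-Ig libraries 1, 2 and 3, and at 400.0, 419 and 445 in control libraries 1, 2 and 3. The groups overlapped, since control library 1 was below CTLA4-Ig library 1, and the log2 fold change was -0.08 ± 0.06 (SE; limma adjusted p = 0.899), or -0.04 without control library 3. Its partner Lamp2, needed for the fusion of autophagosomes with lysosomes (chromosome X, 38399647 to 38456460), stood at 138, 146 and 149 FPKM with CTLA4-Ig. In the controls it stood at 163, 137 and 136. The highest and the lowest value of Lamp2 were thus both in controls, and the log2 fold change was -0.01 ± 0.08 (SE; limma adjusted p = 0.995). Lamp1 was 2.45 to 3.27 times as high as Lamp2 over the 6 libraries.

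Scarb2, which encodes the receptor LIMP-2 that carries glucocerebrosidase to lysosomes (chromosome 5, 92441311 to 92505657), stood at 41.8, 34.3 and 37.5 FPKM with CTLA4-Ig. The control libraries had 39.0, 44.6 and 45.3 FPKM. CTLA4-Ig library 1 exceeded control library 1, so the groups overlapped, and the log2 fold change was -0.18 ± 0.09 (SE; limma adjusted p = 0.853), or -0.11 without CTLA4-Ig library 2. Cln3, the gene of juvenile Batten disease, had 29.9 ± 3.47 FPKM with CTLA4-Ig and 28.6 ± 1.98 in the controls (SD, n = 3). Mcoln1, which encodes the calcium release channel TRPML1, had 13.1 ± 0.533 and 12.8 ± 0.437 (SD, n = 3), with an interval of the log2 fold change from -0.13 to 0.18.

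The 8 proteases had a median log2 fold change of -0.03, with 2 positive and 6 negative. Cathepsin C, encoded by Ctsc, removes dipeptides and activates the serine proteases of granules (chromosome 7, 88278024 to 88315861). Ctsc stood at 211, 207 and 161 FPKM with CTLA4-Ig and at 255, 201 and 240.3 in the controls. CTLA4-Ig library 3 was lowest, and control library 2 fell among the CTLA4-Ig values. The log2 fold change of -0.27 ± 0.13 (SE) was the lowest of the 36 genes (limma adjusted p = 0.851), and it was -0.17 with array weights and -0.14 without CTLA4-Ig library 3. In the same libraries, markers of neutrophil precursors, the primary granule genes among them, summed to 2692 to 3682 FPKM with CTLA4-Ig and 3001 to 3815 in the controls.

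Ctsd, which encodes the aspartic protease cathepsin D (chromosome 7, 142375910 to 142387827), stood at 269, 290.3 and 342 FPKM with CTLA4-Ig. Control libraries had 361, 257 and 272. The values of 1 library in each group, CTLA4-Ig 3 and control 1, were high, and the log2 fold change was 0.03 ± 0.15 (SE; limma adjusted p = 0.987). Ctsz, a carboxypeptidase (chromosome 2, 174427494 to 174439039), stood at 276, 234 and 241 FPKM with CTLA4-Ig and 278, 259 and 279 in the controls. CTLA4-Ig library 1 lay among the controls, and the log2 fold change was -0.12 ± 0.08 (SE; limma adjusted p = 0.890). It was -0.07 without CTLA4-Ig library 2 and -0.19 without CTLA4-Ig library 1.

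Lgmn was the most variable of the 36 genes, with a highest value 1.72 times its lowest. It stood at 33.4, 36.8 and 53.0 FPKM with CTLA4-Ig and at 46.9, 30.7 and 41.1 in the controls. CTLA4-Ig library 3 was highest and control library 2 lowest. The complement gene C1qa, a marker of tissue macrophages, had 11.5, 19.3 and 50.2 FPKM in the CTLA4-Ig libraries and 25.6, 7.96 and 11.9 in the controls. CTLA4-Ig library 3 was thus highest and control library 2 lowest for C1qa as well, as also for C1qb and C1qc. Among the other macrophage markers, Mrc1, Cd163 and Maf had the same extremes, and Folr2 shared only the highest. Apoe, Emr1, Trem2 and Mertk were instead highest in control library 1, and Cd68 was lowest in CTLA4-Ig library 3. Vsig4 was highest in CTLA4-Ig library 2 (0.174 FPKM) and Timd4 in CTLA4-Ig library 1 (0.305 FPKM). The part of macrophages in the Lgmn values was not tested. Lgmn and C1q genes were singled out after their values were seen.

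Tpp1, a tripeptidyl peptidase, varied least of the 36 genes: its highest value was 1.06 times its lowest, at 25.3 ± 0.398 FPKM with CTLA4-Ig and 25.4 ± 0.745 in the controls (SD, n = 3). The cysteine protease gene Ctsb had 199 ± 14.5 and 201 ± 13.8 FPKM, and the aminopeptidase gene Ctsh 253 ± 8.46 and 260.5 ± 33.2 (SD, n = 3). Ctsa, the protective protein that stabilises sialidase and β-galactosidase, had 94.4 ± 3.74 and 97.8 ± 7.90 FPKM (SD, n = 3). Its level was 2.93 to 3.80 times that of Neu1 and 4.37 to 5.47 times that of Glb1, the genes of those enzymes.

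The 10 genes of glycan degradation had a median log2 fold change of -0.04, with 4 positive and 6 negative. Sgsh (chromosome 11, 119343489 to 119355510) stood at 7.98, 6.23 and 7.68 FPKM with CTLA4-Ig and at 9.26, 8.10 and 8.25 in the controls. All 3 controls were above the CTLA4-Ig libraries. The log2 fold change was -0.21 ± 0.11 (SE), with an interval from -0.46 to 0.05 (limma adjusted p = 0.853), and without CTLA4-Ig library 2, the lowest, it was -0.11.

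Gusb, which encodes β-glucuronidase (chromosome 5, 129989011 to 130003049), stood at 87.5, 84.7 and 94.7 FPKM with CTLA4-Ig and 102, 93.8 and 95.1 in the controls. CTLA4-Ig library 3 lay above control library 2, and the log2 fold change was -0.12 ± 0.07 (SE; limma adjusted p = 0.854). Hexa, the α subunit of β-hexosaminidase, which degrades gangliosides (chromosome 9, 59539540 to 59565109), stood at 245, 221 and 229.7 FPKM with CTLA4-Ig. The controls had 199, 246 and 257, so that control library 1 was lowest and control library 3 highest. The log2 fold change was -0.01 ± 0.11 (SE; limma adjusted p = 0.997). Man2b1, a lysosomal α-mannosidase (chromosome 8, 85082730 to 85098739), stood at 109, 103 and 117 FPKM against 128, 107 and 112 in the controls. Those groups overlapped, with a log2 fold change of -0.07 ± 0.08 (SE; limma adjusted p = 0.928).

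Neu1 had the highest log2 fold change of the 36, at 29.4 ± 1.99 FPKM with CTLA4-Ig and 27.2 ± 0.668 in the controls (SD, n = 3; 0.11 ± 0.07, SE; limma adjusted p = 0.885), and its groups overlapped. Glb1, the β-galactosidase gene, had 19.1 ± 2.45 and 21.5 ± 1.34 FPKM (SD, n = 3), with -0.17 ± 0.10 on the log2 scale (SE; limma adjusted p = 0.878). Gaa, the acid α-glucosidase of glycogen breakdown, had 10.5 ± 0.563 and 11.3 ± 0.553 FPKM (SD, n = 3), and Gla, the α-galactosidase of Fabry disease, 6.56 ± 0.927 and 6.33 ± 0.570. The β-mannosidase gene Manba had 16.5 ± 0.275 and 16.4 ± 0.646 FPKM, and Naglu, which acts on heparan sulfate like Sgsh, 8.05 ± 0.767 and 7.91 ± 0.515 (SD, n = 3). The groups were apart in Sgsh and overlapped in Naglu, and the difference between these genes was not tested.

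The 6 genes of lipid handling had a median log2 fold change of -0.05, with 2 positive and 4 negative. Asah1 (chromosome 8, 41340646 to 41397644) stood at 112, 111 and 110.0 FPKM with CTLA4-Ig, and at 133, 113 and 121 in the controls. The 3 controls were all above the CTLA4-Ig libraries, control library 2 by a small margin and control library 1 by the most. The log2 fold change was -0.14 ± 0.07 (SE), with an interval from -0.30 to 0.03 (limma adjusted p = 0.853), and it was -0.07 without control library 1.

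Psap (chromosome 10, 60277628 to 60302600) stood at 2051, 1769.5 and 1577 FPKM with CTLA4-Ig and at 1415, 1905 and 2007 in the controls. Control library 1 was lowest and CTLA4-Ig library 1 highest, and the groups overlapped almost entirely. The log2 fold change was 0.03 ± 0.16 (SE; limma adjusted p = 0.988) and turned to -0.13 without control library 1. Npc2, which hands cholesterol to the membrane transporter Npc1 (chromosome 12, 84754559 to 84773112), stood at 174, 142 and 163 FPKM with CTLA4-Ig and 164, 175 and 184 in the controls. CTLA4-Ig library 2 was lowest, and the log2 fold change was -0.13 ± 0.09 (SE; limma adjusted p = 0.890). It was -0.05 without that library and -0.19 without CTLA4-Ig library 1. Npc1 itself had 16.3 ± 1.21 and 16.8 ± 0.533 FPKM (SD, n = 3), so that Npc2 was 9.39 to 10.7 times as high over the 6 libraries.

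Lipa, the acid lipase that splits cholesteryl esters, had 42.1 ± 3.18 FPKM with CTLA4-Ig and 41.2 ± 7.64 in the controls (SD, n = 3). Ppt1, which removes palmitate from proteins, had 61.6 ± 3.59 and 64.6 ± 7.85 (SD, n = 3). In both genes the control libraries were spread more widely than the CTLA4-Ig libraries, and control library 1 was at one end of them.

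The regulators were Tfeb and Grn. Tfeb, the transcription factor of the motif above (chromosome 17, 47737037 to 47792416), stood at 32.2, 26.4 and 26.4 FPKM with CTLA4-Ig and 27.4, 26.3 and 27.5 in the controls. CTLA4-Ig library 1 was high and the other 5 libraries lay between 26.3 and 27.5 FPKM. The log2 fold change was 0.06 ± 0.09 (SE; limma adjusted p = 0.942), and it was -0.04 without that library. Grn, which encodes progranulin, a secreted protein that also supports lysosomal enzymes (chromosome 11, 102430507 to 102436809), stood at 247, 242 and 259 FPKM with CTLA4-Ig. The controls had 262, 239 and 241, overlapping, and the log2 fold change was 0.01 ± 0.06 (SE; limma adjusted p = 0.986). Tfeb RNA does not report on where the TFEB protein is in the cell, which is the main way its activity is known to be set.

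Among the 30 genes with a promoter in the table, the median log2 fold change was 0.03 in the 7 with TCACGTGA, from -0.14 for Atp6v1a to 0.06 for Cln3. In the 23 without it the median was -0.01. The levels of the 7 ran from 6.44 to 298 FPKM, and those of the 23 from 7.92 to 1787. These are descriptions without a test.

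The 5 V-ATPase genes had a median log2 fold change of -0.05, with 1 positive and 4 negative. The pump joins a peripheral sector that splits ATP to a membrane sector that carries protons. Atp6v1a encodes the catalytic subunit A of the peripheral sector (chromosome 16, 44085402 to 44139702). It stood at 46.7, 50.9 and 46.2 FPKM with CTLA4-Ig and 62.5, 48.3 and 48.5 in the controls. Control library 1 was high and the other 2 controls lay among the CTLA4-Ig libraries, so that the log2 fold change of -0.14 ± 0.11 (SE; limma adjusted p = 0.903) became -0.02 without it. Atp6v1b2, subunit B (chromosome 8, 69088736 to 69113718), stood at 178, 180.2 and 174 FPKM with CTLA4-Ig against 191, 176 and 184, an overlap, with a log2 fold change of -0.05 ± 0.05 (SE; limma adjusted p = 0.926), or -0.02 without control library 1 and -0.08 without control library 2. Subunits A and B are present in equal number in the assembled pump, while the RNA of Atp6v1b2 was 3.05 to 3.82 times that of Atp6v1a over the 6 libraries.

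Atp6v1h, the regulatory subunit H (chromosome 1, 5082978 to 5163213), stood at 30.6, 27.8 and 27.6 FPKM with CTLA4-Ig and 33.1, 31.9 and 29.1 in the controls. CTLA4-Ig library 1 exceeded control library 3, and the log2 fold change was -0.12 ± 0.07 (SE; limma adjusted p = 0.877). Atp6ap1, an accessory protein of pump assembly (chromosome X, 74297097 to 74304721), stood at 144, 131 and 140.3 FPKM with CTLA4-Ig and 144, 137 and 137 in the controls. These groups coincided, with a log2 fold change of -0.01 ± 0.06 (SE; limma adjusted p = 0.991). Atp6v0d1, subunit d of the membrane sector, had 107 ± 6.29 and 106 ± 13.7 FPKM (SD, n = 3). Its osteoclast-type paralog Atp6v0d2 stayed at 0.349 to 0.659 FPKM over the 6 libraries, and Atp6v1b1, the paralog of Atp6v1b2 found in kidney, at 0 to 0.0611, both below the minimum for testing.

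Single libraries stood out within their groups. Control library 1 held the highest value of the 6 for 15 of the 36 genes and the lowest for 5, so it was extreme for 55.6% of them, against 49.4% of all genes tested. CTLA4-Ig library 2 held the lowest value for 12 of the 36 genes and the highest for 2. It was thus extreme for 38.9% of them, near the 37.6% of all genes tested. Against the mean of the other controls, control library 1 was higher by 0.45 on the log2 scale in Ctsd, 0.39 in Lgmn, 0.36 in Atp6v1a, 0.31 in Atp6v0d1 and 0.29 in Ppt1. It was lower in Psap, at -0.47, in Lipa at -0.40, in Hexa at -0.34 and in Ctsh at -0.29. Its gaps thus went both ways within each of proteases and lipid genes. Over the 6 libraries the highest value was under 1.5 times the lowest in 34 of the 36 genes, and in 85.7% of the genes that averaged 5 FPKM or more. Ctsc and Lgmn were the others. Without control library 1, limma called 0 of the 36 genes, the median log2 fold change was -0.02, and 14 genes were positive and 22 negative. The split depended on other libraries too: 8 were positive and 28 negative without CTLA4-Ig library 3, and 9 and 27 without control library 2.

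**Figure D4:**
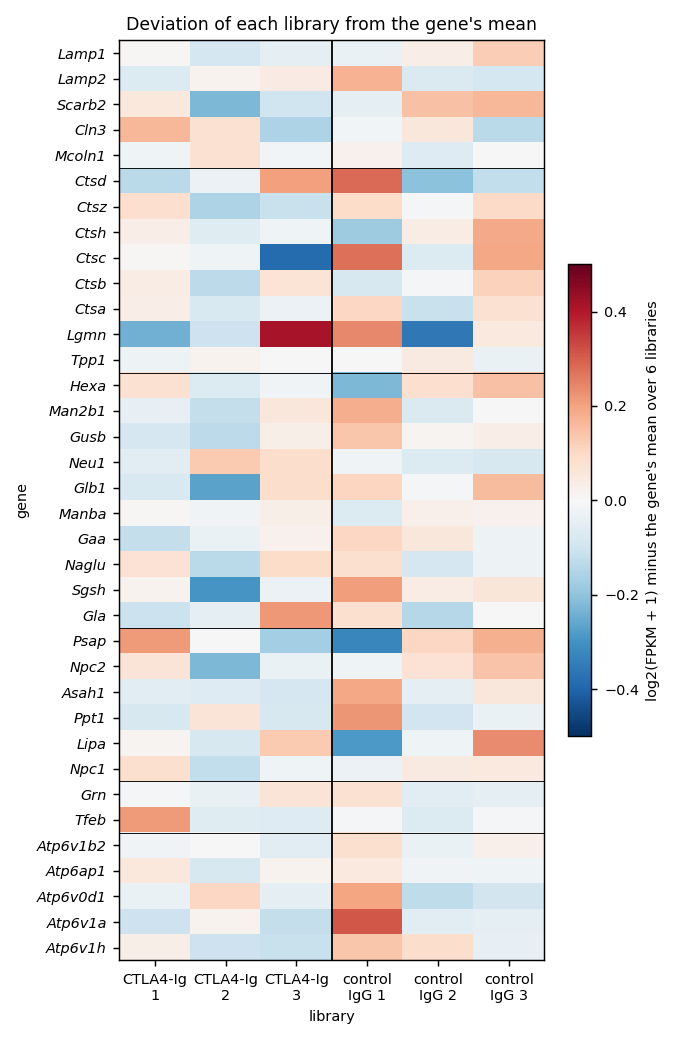
Deviation of each library (columns) from the gene's mean over the 6 libraries on the log2(FPKM + 1) scale (colour, limits -0.5 and 0.5) for the 36 genes (rows, by role). Control library 1 holds the highest value for 15 of the 36 genes and the lowest for 5, and in 34 of the 36 rows the values of the groups overlap.

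Other genes of the lysosome were read from 5 lists with 114 names, of which 113 were matched and 107 tested. Limma called 0 of the 107, with 2 higher and 3 lower at an unadjusted p under 0.05. Of all genes tested, 444 were higher and 215 lower at that level, together 6.07%. The groups did not overlap in 9 of them with lower CTLA4-Ig values and in 7 with higher ones, and the median log2 fold change was -0.03. Over all genes tested, the groups did not overlap in 5.69% with lower and in 6.5% with higher CTLA4-Ig values.

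Of 32 other lysosomal hydrolases, 11 were positive and 21 negative, with a median log2 fold change of -0.04. Ctss, cathepsin S, which trims the invariant chain of MHC class II in antigen-presenting cells, stood at 559.8, 497 and 559 FPKM with CTLA4-Ig and at 648, 584 and 627 in the controls. All 3 controls were above the CTLA4-Ig libraries, with a log2 fold change of -0.20 ± 0.08 (SE; limma adjusted p = 0.762). The carboxypeptidase gene Prcp had -0.13 ± 0.07, and Smpd1, the acid sphingomyelinase gene, 0.10 ± 0.06 (SE; limma adjusted p = 0.853 and 0.877). Prcp had -0.07 without control library 3.

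Of 22 other membrane and transport genes, 11 were positive and 11 negative, with a median of 0.00 on the log2 scale (-0.005 before rounding). The transporter-like gene Mfsd1 stood at 58.4, 57.0 and 54.5 FPKM with CTLA4-Ig and 64.4, 62.2 and 61.9 in the controls, so the groups were apart (log2 fold change -0.15 ± 0.05, SE; limma adjusted p = 0.751). Cd63, a tetraspanin of late endosomes and of granules, stood at 176, 247 and 245 FPKM with CTLA4-Ig and at 179, 180.0 and 171 in the controls. CTLA4-Ig libraries 2 and 3 were high and library 1 lay among the controls (log2 fold change 0.31 ± 0.13, SE; limma adjusted p = 0.817), and without library 1 the value was 0.47. The amino acid transporter gene Slc36a1 had -0.13 ± 0.06 (SE; limma adjusted p = 0.853).

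Of 17 genes that sort enzymes to lysosomes, 6 were positive and 11 negative, with a median of -0.04. Igf2r, the large mannose 6-phosphate receptor, stood at 8.39, 11.7 and 8.83 FPKM with CTLA4-Ig and at 6.37, 7.53 and 6.41 in the controls. All CTLA4-Ig libraries were above the controls, with a log2 fold change of 0.44 ± 0.13 (SE), but the adjusted p in limma was 0.720. Gnptg and Gnptab, subunits of the enzyme that makes the mannose 6-phosphate tag, had 0.14 ± 0.07 and -0.13 ± 0.08 (SE; limma adjusted p = 0.856 and 0.886). Gnptg had 0.07 without CTLA4-Ig library 2, and Gnptab -0.07 without control library 3.

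Of 18 other V-ATPase genes tested, 10 were positive and 8 negative, with a median of 0.02. Atp6v1f stood at 184, 182 and 183 FPKM with CTLA4-Ig and 163, 173 and 174 in the controls, all higher with CTLA4-Ig (log2 fold change 0.11 ± 0.05, SE; limma adjusted p = 0.848). Atp6v1c1 was lower in all CTLA4-Ig libraries, with -0.11 ± 0.06, and Atp6v1e1 had 0.11 ± 0.06 (SE; limma adjusted p = 0.869 and 0.877). Atp6v1c1 had -0.07 without CTLA4-Ig library 3, and Atp6v1e1 0.07 without CTLA4-Ig library 2. The log2 fold changes of these subunits of the same pump were small and differed in sign, and none passed the test. Tcirg1, the a3 subunit that osteoclasts need, stood at 119.9 ± 4.85 and 117 ± 7.23 FPKM (SD, n = 3), a gene outside the naming rule.

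Of 18 tested genes of the TFEB family and of lysosomal mTORC1 control, 7 were positive and 11 negative, with a median of -0.02. Mlst8, an mTOR complex subunit, stood at 26.1, 30.0 and 22.7 FPKM with CTLA4-Ig and 19.05, 21.6 and 18.7 in the controls. The groups were apart, and the log2 fold change was 0.39 ± 0.11 (SE; limma adjusted p = 0.720). Tfec, the TFEB relative of myeloid cells, had 37.0, 34.3 and 36.2 FPKM with CTLA4-Ig and 43.2, 37.6 and 43.0 in the controls, apart in the other direction (-0.20 ± 0.07, SE; limma adjusted p = 0.753). Mitf, at 2.62 ± 0.534 and 3.15 ± 0.262 FPKM (SD, n = 3), had -0.20 ± 0.14 (SE; limma adjusted p = 0.890), or -0.08 without CTLA4-Ig library 2.

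Some of the 36 genes share sequence with an overlapping gene, and the use of strand in counting is not given in the sources used here. Glb1 contains Tmppe on the same strand (5.72 FPKM). On the opposite strand, the span of Ctsa overlaps Pltp (17.9 FPKM), that of Ctsb Fdft1 (15.7), that of Cln3 Apobr (55.6) and that of Ppt1 Cap1 (375), so the values of these genes are uncertain where reads of the overlap were split.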

How the data were processed

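The data are mRNA-seq libraries of sorted cells, 6 in all. The labels' protocols name miRNeasy for RNA and TruSeq stranded mRNA for libraries. The submitters' processing notes list Cuffnorm 2.2.1, SAMtools 0.1.19, Bowtie2 2.2.3 and TopHat2 2.0.13 and build mm10, while for settings, annotation and use of strand the sources used here give nothing. The values deposited by the authors are FPKM per gene name and library, with sums of 726358 to 851706. They hold no read counts, so no count test was run. Of 15239 low values, 61.9% came within 0.02 of a whole multiple, after depth scaling, of the lowest value of that gene. The other low values did not. Relative depth came from the spacing of low values. Its absolute scale came from 157 genes with 1 GENCODE transcript, kept because their values lay within 0.02 of whole multiples.

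The test was limma 3.58.1 (R 4.3.3; lmFit, then eBayes with a trend) on log2(FPKM + 1), for the 10865 genes averaging 1 FPKM or more, with Benjamini-Hochberg adjustment over all of them and a threshold of 0.05. Fold changes of low genes are understated on this scale. Python 3.11.15, pandas 2.3.3, numpy 2.4.6 and matplotlib 3.10.9 were used for tables and figures. Of 114 names in the further lists 3 were matched through an older RefSeq symbol and 1 was not matched, and of 108 marker names 3 and 2. Coordinates are from RefSeq, GRCm38.p6.

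The 36 genes, the lists, the tests and the alternatives were chosen with earlier results of these data known, so no list has a test of its own. Values in every library are given for the 2 highest genes and the 2 with the smallest unadjusted p in each role and for genes whose groups do not overlap, and 3 genes by smallest p are named per further list. Results were recomputed without each library in turn, with the replicate number as a block, with array weights, with a robust prior or no trend, with quantile or median-of-ratios scaling, with pseudocounts of 0.5 and 0.1, and with a 5 FPKM filter or none.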

Additional observations from a re-analysis of the deposited data

How the results depend on the processing

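Limma called 0 of the 36 genes under all 16 alternatives, with 0 to 3 at an unadjusted p under 0.05 and a smallest adjusted p of 0.574 (Scarb2 with array weights). Their median log2 fold change stayed negative, from -0.06 to -0.02, and 8 (without CTLA4-Ig library 3) to 15 were positive. The replicate block, the robust prior, no trend, the 5 FPKM filter and no filter cannot move the fold changes of the 36 genes, only their p-values. The medians of some roles and lists changed sign when a library was left out: they went from -0.046 to 0.044 for membrane proteins, -0.007 to 0.069 for regulators, -0.020 to 0.045 for other membrane and transport genes, -0.052 to 0.0017 for enzyme sorting, -0.009 to 0.020 for other V-ATPase genes and -0.035 to 0.0097 for the TFEB family and mTORC1 genes. With array weights, those of membrane proteins and of other membrane and transport genes were 0.043 and 0.023, and the latter was 0.009 with the 5 FPKM filter. The protease median went from -0.091 to -0.014, that of glycan genes from -0.086 to -0.0009, that of lipid genes from -0.082 to -0.020, that of the 5 V-ATPase genes from -0.076 to -0.015 and that of other hydrolases from -0.079 to -0.018. Over all genes, calls went from 0 to between 0 and 6 when a library was left out: 6 without CTLA4-Ig library 3, 2 without CTLA4-Ig library 1 or control library 3, 1 without CTLA4-Ig library 2 or control library 2. Of these 12 calls, 11 were microRNA or small nucleolar RNA names and the other was Gm9781. With 2 libraries in a group, its spread is taken with that of the other group.

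Signs of fold changes near 0 turned. With array weights the log2 fold change was 0.011 for Atp6ap1, 0.043 for Lamp2 and -0.050 for Psap, and with quantile normalization -0.010 for Grn. Leaving out single libraries gave -0.037 to 0.031 for Atp6ap1, -0.068 to 0.18 for Ctsd, -0.013 to 0.056 for Grn, -0.12 to 0.067 for Hexa, -0.053 to 0.077 for Lamp2, -0.12 to 0.0036 for Man2b1, -0.13 to 0.12 for Psap and -0.035 to 0.10 for Tfeb. The cause was not tested. The replicate block cannot change a fold change in this balanced design. With it the median was -0.03 and 0 genes were called. Deviations of same-numbered libraries correlated at -0.15, -0.09 and -0.02 across genes, and those of differently numbered ones at -0.04 to 0.13. These correlations show no pairing by number. With 3 libraries per group they cannot settle whether libraries of the same number were handled together. Whether depth limits any of the 36 genes was not tested.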
